A study of Mus musculus with 19 samples.

Results

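Sox1, Sox2, Sox3, Pax6, Hes1, Hes5, Nes and Fabp7 are 8 genes by which neural progenitors are commonly recognised. The rule that chose them names symbols and uses no values, and each symbol was matched to the Ensembl identifiers of the count tables. All 8 were found among 55487 genes, and all 8 passed the filter on low counts in the cultures and in the cords. The series holds RNA-seq of 19 mouse libraries in 4 groups. In 3 libraries, motor neuron cultures had received a miR-146a LNA, and in another 3 libraries, cultures of the same kind had received a control LNA. A further 9 libraries came from spinal cords of miR-146a KO mice and 4 from cords of miR-146a WT mice.

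An LNA is a short antisense oligonucleotide with stabilised sugars, used here against the mature miRNA. Both culture groups were wild-type neurons differentiated from RW.4 mouse embryonic stem cells with retinoic acid and SAG, a Smoothened agonist that stands in for Sonic hedgehog. Both were transfected with Lipofectamine 2000 and 10 nM of their LNA for 72 h, so the controls carry the transfection and an oligonucleotide too. The labels give no age, sex, litter or batch for the cords, and do not say whether libraries come from separate animals or separate differentiations. The p-values therefore measure the spread between these libraries, which may be in part technical. In bulk RNA, fewer progenitors and less RNA of a gene in each progenitor cannot be told apart.

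Neural progenitors are the dividing cells of the embryonic neural tube from which neurons and later glia arise. SOX1, SOX2 and SOX3, the closely related SoxB1 factors, keep them undifferentiated, while Notch signalling switches on the repressors HES1 and HES5, which hold proneural genes in check. PAX6 patterns the neural tube, and nestin (Nes) and the brain fatty acid binding protein (Fabp7) are structural and metabolic marks of radial glia. In the mature nervous system, Sox2 and Fabp7 are also expressed by glia, and nestin by vessel cells and reactive astrocytes.

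The mature miRNA is shown first, because it is the molecule removed or blocked in both comparisons. It is encoded on the minus strand at chr11:43374435-43374456 (GRCm38, sequence from RefSeq), and the capitals mark its seed, bases 2 to 8.
mmu-miR-146a-5p: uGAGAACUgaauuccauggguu
A target site pairs with the seed through the letters AGTTCTC, or through GTTCTCA where an A follows a shorter match. None of the 8 genes holds either run of letters in its longest annotated 3′ UTR (GENCODE M21, 277 bases in Fabp7 to 2590 bases in Sox1). Of 16054 tested genes with an annotated 3′ UTR, 3216 held one (20.03%), and the median 3′ UTR over the 16054 genes had 1133 bases. The scan describes these letters in these UTRs and tests no targeting. The miR-146a precursor had 1 count in the KO cords together and 0 in WT cords, in LNA cultures and in control cultures, so the counts of the targeted gene check no label.

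The promoters of Nes and Hes5 are shown because Nes is the member that passed a test and because Hes5, the Notch target, stood at the opposite end from Nes across the cords. Each window runs from 250 bases before to 50 bases after the gene's start (RefSeq, GRCm38.p6, plus strand). The Nes window is chr3:87970843-87971142 and the Hes5 window is chr4:154960673-154960972. Capitals mark 2 motifs searched on both strands, the core TGGGAA that is bound by RBPJ, the DNA-binding factor of the Notch pathway, and the GC box GGGCGG. Read from the other strand, the RBPJ core is TTCCCA, while a GC box then appears as CCGCCC.
Nes promoter: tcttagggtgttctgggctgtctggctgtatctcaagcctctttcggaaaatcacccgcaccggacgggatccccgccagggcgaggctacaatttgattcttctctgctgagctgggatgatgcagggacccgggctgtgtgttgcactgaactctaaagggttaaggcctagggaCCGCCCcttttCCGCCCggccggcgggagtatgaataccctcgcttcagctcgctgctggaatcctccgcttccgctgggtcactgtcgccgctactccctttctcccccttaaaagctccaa
Hes5 promoter: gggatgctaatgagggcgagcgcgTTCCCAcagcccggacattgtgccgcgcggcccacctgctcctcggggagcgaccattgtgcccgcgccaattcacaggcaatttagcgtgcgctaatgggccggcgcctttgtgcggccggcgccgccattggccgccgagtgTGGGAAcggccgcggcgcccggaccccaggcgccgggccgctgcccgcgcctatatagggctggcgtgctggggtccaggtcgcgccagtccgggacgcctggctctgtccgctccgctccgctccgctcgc
The Nes window held 2 GC boxes, at bases 178 and 189, and no RBPJ core, while the Hes5 window held 2 RBPJ cores, at bases 25 and 169, and no GC box. The marked runs do not overlap. Of 32851 promoter windows of the same length, 25.6% held an RBPJ core and 35.7% a GC box. Windows matched 6 of the 8 genes, all but Sox3 and Hes1, and among the other 4 genes Sox1 and Fabp7 also held an RBPJ core, and Sox1 and Sox2 a GC box. A match is a run of letters and not a known binding site, and mouse Nes is known to be driven in neural progenitors by an enhancer in one of its introns, outside this window.

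Total counts ran from 40647549 to 65471742 in the cultures and from 28163289 to 39577247 in the cords. Motor neuron identity of the cultures was clear from their markers, whose summed level was 1416 to 1491 normalised CPM (counts scaled to a common library total) in LNA cultures and 1421 to 1513 in control cultures, with 7 of 7 markers tested. In the cords, neuron, astrocyte and oligodendrocyte markers were all detected. KO replicate 7 stood apart from the other cords: its skeletal muscle markers summed to 3681 normalised CPM, and Acta1, the muscle actin, was at 2564 normalised CPM in it, at 1.20 to 2.20 in the other 8 KO cords and at 1.13 to 6.03 in WT cords. The library labelled KO replicate 9 had Pttg1, a neighbour of the miR-146a gene, at 13.04 normalised CPM, against 1.06 to 1.81 in the other 8 KO cords and 14.9 to 17.4 in WT cords. At that gene it goes against its label. It was kept in its labelled group, and the cord results for Nes and Hes5 and the counts of calls are also given without these 2 libraries.

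In TPM, a scale that accounts for gene length and so lets genes be set side by side, the cultures and the cords ordered the 8 genes differently. In LNA cultures Nes was highest at 39.2 ± 4.02 TPM, followed by Fabp7 at 37.3 ± 8.63, and then by Sox2 at 3.96 ± 0.18 (SD, n = 3). Control cultures had Fabp7 at 31.5 ± 5.52 TPM, Nes at 29.6 ± 2.09 and Sox2 at 4.87 ± 0.41 (SD, n = 3). In both culture groups the ranges of Nes and Fabp7 overlapped, and both genes lay above Sox2 in every library. Hes1 and Sox3 followed, with overlapping ranges between 1.52 and 3.12 TPM over all cultures. Hes5, Pax6 and Sox1 averaged under 1 TPM in each culture group.

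KO cords had Sox2 at 77.4 ± 5.95 TPM (SD, n = 9), and WT cords had it at 74.0 ± 3.37 TPM (SD, n = 4), the highest of the 8 genes in every cord. Fabp7 came next by mean at 31.7 ± 13.6 TPM in KO cords and 28.5 ± 4.09 in WT cords. Nes followed Fabp7 in KO cords at 19.2 ± 14.6 TPM, where its range overlapped those of Fabp7 and Sox1, and came after Fabp7, Sox1 and Hes1 in WT cords at 8.88 ± 1.70 TPM. Sox3 was lowest in both, at 2.49 ± 0.65 TPM in KO cords and 2.56 ± 0.23 TPM in WT cords.

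**Figure D1:**
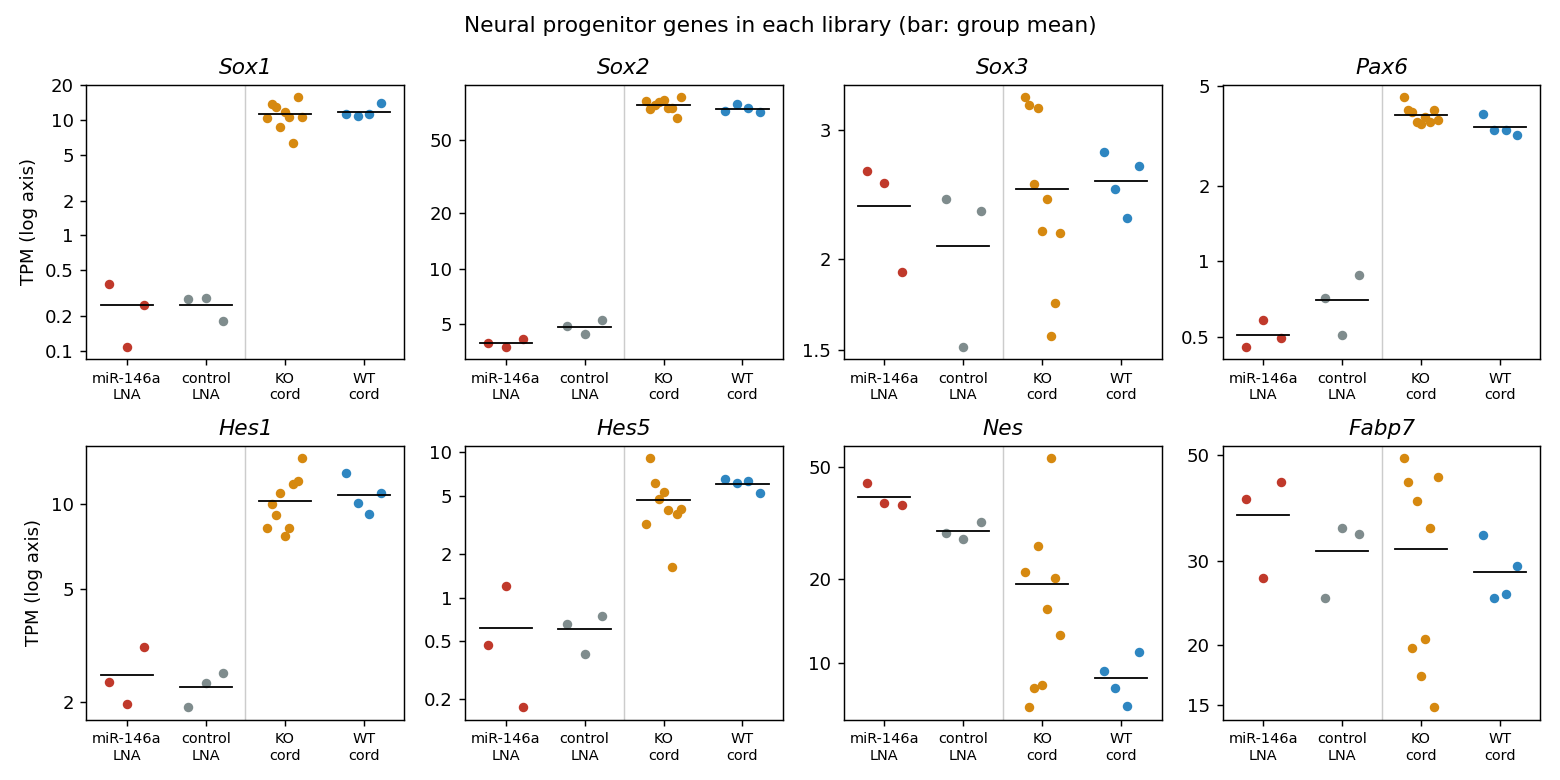
Level of each gene in every library, in TPM on a log axis whose range differs between panels; points are libraries and bars are group means. Nes is higher in all 3 LNA cultures than in all 3 control cultures, Sox2 is lower in all 3, and the KO cords spread widely in Nes, Hes5 and Fabp7 around the WT cords.

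WT cords set beside control cultures show which of the 8 genes a differentiated motor neuron culture still expresses. Sox1 averaged 11.9 ± 1.55 TPM in WT cords and 0.25 ± 0.059 TPM in control cultures, a ratio of 47.7. Sox2 was 15.2 times and Hes5 10.1 times as high in WT cords as in control cultures, and Pax6 (4.89 times) and Hes1 (4.75 times) also lay above all control cultures in every WT cord. Nes went the other way, at 8.88 ± 1.70 TPM in WT cords and 29.6 ± 2.09 TPM in control cultures. Sox3 and Fabp7 overlapped between the 2 materials. Cord and culture differ in every respect of origin, and these ratios are descriptions without a test.

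The culture comparison asks what blocking miR-146a changes among progenitor genes that remain in motor neuron cultures. Nes, which encodes the intermediate filament protein nestin, rose in LNA cultures, and the other 7 genes did not pass the test. Over all genes, edgeR's quasi-likelihood test with Benjamini-Hochberg adjustment called 1635 of 19099 tested genes at an adjusted p below 0.05 (8.56%), 458 of them higher in LNA cultures (2.4%) and 1177 lower (6.16%). An unadjusted p below 0.05 was reached by 22.9% of all tested genes (9.81% higher in LNA cultures) and by 1 of the 8 genes, again Nes. A single call among 8 genes is close to that background share and marks nothing particular about the set. The median log2 fold change of the 8 genes was 0.10, beside 0.0076 over all tested genes, with 5 genes positive and 3 negative.

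Nes (ENSMUSG00000004891, chr3:87971078-87980451, plus strand, GRCm38) had 74.2, 62.0 and 63.0 normalised CPM in the LNA cultures, against 49.4, 46.8 and 54.0 in the control cultures. All 3 LNA cultures lay above all 3 control cultures. The mean was 66.4 ± 6.77 normalised CPM in LNA cultures and 50.1 ± 3.64 in control cultures (SD, n = 3 each), a log2 fold change of 0.41 (SE 0.077, edgeR adjusted p = 0.00273). The difference kept its side of the threshold without any one library, with log2 values from 0.32 to 0.46 and edgeR adjusted p-values from 0.00222 to 0.0360. It lost it when all 4 groups shared one estimate of the spread, which takes in the scatter of Nes among the cords (log2 0.39, SE 0.59, edgeR adjusted p = 0.874).

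Among the SoxB1 factors, Sox2 (ENSMUSG00000074637, chr3:34650405-34652461, plus strand) had 2.14, 2.03 and 2.29 normalised CPM in LNA cultures, against 2.66, 2.40 and 2.86 in control cultures. All 3 LNA values lay below the control values, yet the log2 fold change of -0.29 (SE 0.21) did not pass the test (edgeR adjusted p = 0.434). Groups of 3 that did not overlap were common in these cultures, at 28.0% of tested genes (12.8% higher and 15.1% lower in LNA cultures), and 2 of the 8 genes, Nes and Sox2, were among them. Sox3 (ENSMUSG00000045179, chrX:60891366-60893430, minus strand) had 1.44, 1.36 and 1.06 normalised CPM in LNA cultures, against 1.31, 0.824 and 1.27 in control cultures. Its groups overlapped, and its log2 fold change was 0.18 (SE 0.29, edgeR adjusted p = 0.771). Sox1 (ENSMUSG00000096014, chr8:12395295-12400126, plus strand) rested on 9 to 21 counts a library, at 0.487, 0.136 and 0.322 normalised CPM in LNA cultures and 0.353, 0.366 and 0.230 in control cultures. The groups overlapped, and with a log2 fold change of -0.05 and an SE of 0.54, a moderate difference in Sox1 was not detectable at this depth.

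Pax6 (ENSMUSG00000027168, chr2:105668900-105697364, plus strand), the paired-box factor of ventral and intermediate progenitors, had the most negative estimate of the 8. It stood at 1.41, 1.77 and 1.55 normalised CPM in LNA cultures, against 2.20, 1.56 and 2.72 in control cultures. LNA replicates 1 and 3 lay below all controls and LNA replicate 2 lay inside their range, and the log2 fold change of -0.45 (SE 0.25) did not pass the test (edgeR adjusted p = 0.313). It ran from -0.64 without control replicate 2 to -0.25 without control replicate 3. Fabp7 (ENSMUSG00000019874, chr10:57784881-57788450, plus strand), the lipid carrier of radial glia, had 13.4, 8.97 and 14.8 normalised CPM in LNA cultures, against 8.28, 11.6 and 11.3 in control cultures. LNA replicates 1 and 3 lay above all controls, and the log2 fold change of 0.25 (SE 0.18) did not pass the test (edgeR adjusted p = 0.448). It ran from 0.096 without LNA replicate 3 to 0.44 without LNA replicate 2.

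Of the Notch effectors, Hes1 (ENSMUSG00000022528, chr16:30064384-30067796, plus strand) had 1.27, 1.04 and 1.71 normalised CPM in LNA cultures, against 1.03, 1.25 and 1.36 in control cultures. The groups overlapped, with a log2 fold change of 0.15 (SE 0.28, edgeR adjusted p = 0.808). Hes5 (ENSMUSG00000048001, chr4:154960923-154962371, plus strand) had 0.170, 0.423 and 0.0645 normalised CPM in LNA cultures, from 4 to 28 counts, against 0.236, 0.146 and 0.269 in control cultures, from 8 to 14 counts. LNA replicate 2 was above and LNA replicate 3 below all controls, and the log2 fold change of 0.04 (SE 0.65, edgeR adjusted p = 0.979) carries no direction. Without LNA replicate 2 it was -0.94.

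**Figure D2:**
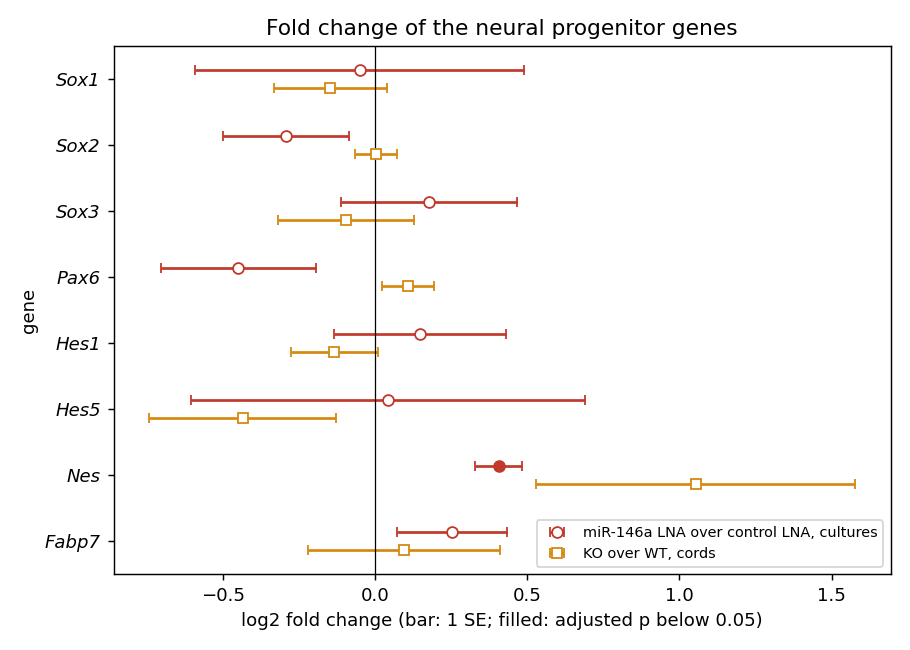
Log2 fold change of each gene, circles for miR-146a LNA over control LNA cultures (n = 3 each) and squares for KO over WT cords (n = 9 and 4), with bars of 1 SE from edgeR; a filled symbol marks an adjusted p below 0.05. Only Nes in the cultures is filled, at 0.41, while its cord estimate of 1.05 has a far wider bar.

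Genes that work beside the 8 in progenitors moved in both directions in the cultures. Among 31 tested radial glia and neural stem cell genes, 1 rose and 4 fell, with a median log2 fold change of 0.01. Over all tested genes, 2.4% rose and 6.16% fell. Lin28a, an RNA-binding protein of early progenitors and stem cells, rose to 3.33 ± 0.50 normalised CPM in LNA cultures, against 1.64 ± 0.57 in control cultures (SD, n = 3 each; log2 1.02, SE 0.25, edgeR adjusted p = 0.0176). Msi2, the RNA-binding protein Musashi 2, fell to 17.5 ± 1.28 normalised CPM in LNA cultures, against 26.2 ± 0.94 in control cultures (log2 -0.58, SE 0.085, edgeR adjusted p = 3.0e-04). The fibroblast growth factor receptor Fgfr1 (log2 -0.37) and the receptor phosphatase Ptprz1 (log2 -0.37) also fell. Hmga2, a chromatin protein of young neural stem cells, was the fourth that fell (log2 -0.84, edgeR adjusted p = 0.0432) and is named here after its value was seen.

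Spinal progenitor domain factors, the genes that set dorsal and ventral identity, gave 0 calls among 11 tested genes with edgeR, and none of them passed an unadjusted p of 0.05. Nkx6-2 had a log2 fold change of 0.35 (SE 0.19) and Irx5 of -0.27 (SE 0.15). Among the proneural and commitment genes, Cbfa2t2, a corepressor, fell by 0.22 on the log2 scale. Of 17 tested Notch receptors, ligands and effectors, 1 fell and 0 rose, where 6.16% of all tested genes fell. It was Maml3, a coactivator of the Notch complex, at 20.8 ± 1.30 normalised CPM in LNA cultures and 27.4 ± 0.65 in control cultures (log2 -0.40, SE 0.081, edgeR adjusted p = 0.00446).

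The wider gene families of the 8 held the following calls, where 8.56% of all tested genes were called. Of 13 other Sox genes, Sox7, a factor of endoderm and endothelium, rose (log2 1.12, SE 0.29) and Sox11, a factor of new neurons, fell (log2 -0.21, SE 0.059). Of 4 other Hes and Hey genes, 0 were called with edgeR, 0 passed an unadjusted p of 0.05, and no other Pax gene passed the filter on low counts. Fabp3, the heart fatty acid binding protein, rose (log2 0.33, SE 0.070), and it was 1 of 2 other Fabp genes tested. Nefl, the light neurofilament chain, was the only call among 11 other intermediate filament genes and rose by a log2 of 0.16 (SE 0.044).

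Markers of dividing cells moved with Nes. Of 12 proliferation genes, 3 rose and 0 fell, where 2.4% of all tested genes rose and 6.16% fell. Their median log2 fold change was 0.48, and 11 had a positive estimate, as did 51.5% of all tested genes. The decatenating enzyme Top2a rose by a log2 of 0.72 (SE 0.19), the replication helicase subunit Mcm2 by 0.43 (SE 0.11) and the ribonucleotide reductase subunit Rrm2 by 0.52 (SE 0.15). The 12 genes summed to 82.1, 63.8 and 64.1 normalised CPM in LNA cultures, against 57.1, 56.8 and 58.1 in control cultures, so LNA replicate 1 was highest both in this sum and in Nes. Without LNA replicate 1, Nes had a log2 fold change of 0.32 (edgeR adjusted p = 0.0182).

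Genes listed as markers of undifferentiated stem cells summed to 10.4 to 13.2 normalised CPM in LNA cultures and 6.09 to 9.78 in control cultures over 8 of 8 markers. Klf4 alone ran from 4.11 to 10.1 in the cultures. The same list summed to 24.4 to 40.0 in KO cords and 30.4 to 36.8 in WT cords, so its sum is not particular to such cells. The defining pluripotency genes Pou5f1 and Nanog stayed at or below 0.0916 and 0.0454 normalised CPM in every culture. Of the 3 tested markers, 0 passed with edgeR (1 at an unadjusted p below 0.05), but all 3 had a positive estimate, with a median of 0.40. They were Zfp42 (log2 1.36, SE 0.44, edgeR adjusted p = 0.0695), Klf4 (log2 0.40, SE 0.21) and Esrrb (log2 0.25, SE 0.25). Astrocyte markers summed to 68.1 to 73.2 normalised CPM in LNA cultures and 72.9 to 77.5 in control cultures over 11 of 11 markers. Gfap and Aqp4 were at or below 0.129 normalised CPM in every culture, and Gjb6 and S100b at or below 0.220. Other markers of this list were expressed in every culture, such as Glul (18.6 to 24.3), Sox9 (16.2 to 21.0) and Gja1 (8.27 to 11.8). Neuron markers gave 1 higher and 3 lower calls among 10 genes, where 2.4% of all tested genes were higher and 6.16% lower. Nefl rose, while Map2 (log2 -0.24), Elavl3 (log2 -0.21) and Syt1 (log2 -0.16) fell. Among 7 motor neuron markers, Isl1, the LIM factor of motor neurons, rose (log2 0.31, SE 0.056). The part of these other cells in the difference of Nes was not tested.

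**Figure D3:**
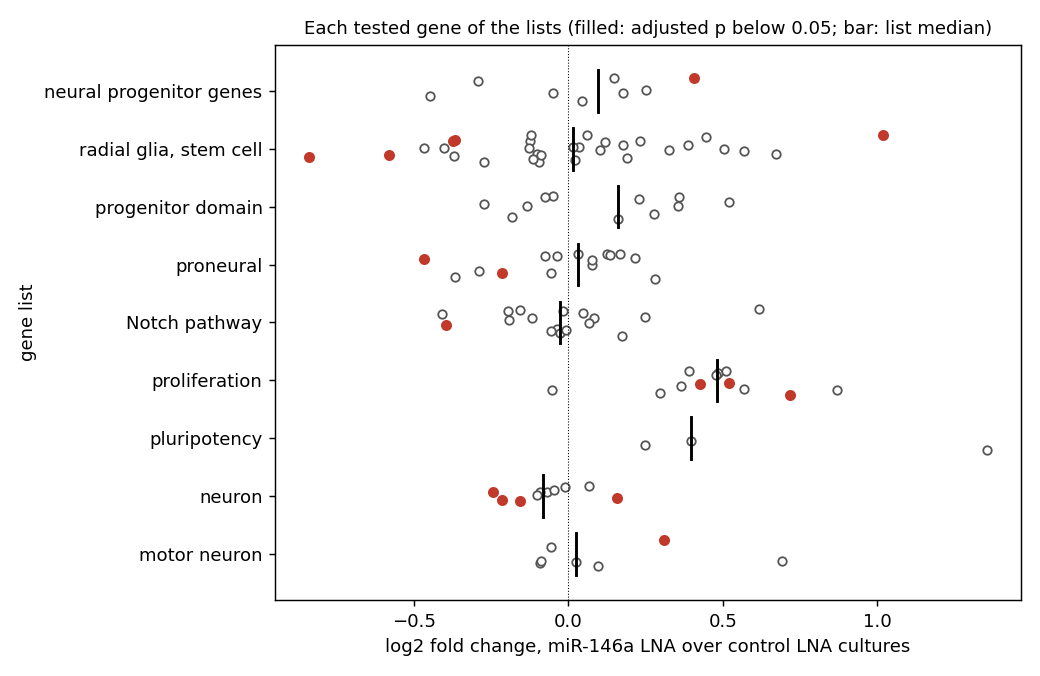
Log2 fold change of each tested gene, miR-146a LNA over control LNA cultures, by gene list; filled points passed an adjusted p of 0.05, and the bar is the list's median. The medians of the progenitor lists lie between -0.03 and 0.16, while 11 of 12 proliferation genes lie right of 0 with a median of 0.48. Of all tested genes, 51.5% had a positive estimate.

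The cord comparison asks the same of spinal cords of mice that lack miR-146a. None of the 8 genes passed the test between KO and WT cords, and edgeR called 0 of 22174 tested genes (0.0%), with 3177 at an unadjusted p below 0.05 (14.3%). DESeq2 called 381 genes and limma with quality weights 3, none of them among the 8. Without KO replicates 7 and 9, edgeR called 8 genes, also with no progenitor gene among them. Of the 8 genes, edgeR put 0 and DESeq2 put 1 below an unadjusted p of 0.05, which was Nes in DESeq2 (DESeq2 adjusted p = 0.269). Their median log2 fold change was -0.05, beside 0.02 over all tested genes, with 4 positive and 4 negative. No member's groups were free of overlap, against 1.3% of all tested genes.

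Nes had the widest estimate. It ran from 14.2 normalised CPM in KO replicate 2 to 107.9 in KO replicate 7, with a median of 32.4 over 9 KO cords, against 18.8, 17.3, 14.2 and 24.1 in the WT cords. Of the KO cords, 5 lay above all WT cords, 1 below them and 3 within their range. The log2 fold change was 1.05 (SE 0.52, edgeR adjusted p = 0.377), and it was 0.70 without KO replicate 7 (adjusted p = 0.436) and 0.75 without KO replicates 7 and 9 (adjusted p = 0.441).

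Hes5 had the most negative estimate in the cords. It ran from 0.692 normalised CPM in KO replicate 7 to 3.93 in KO replicate 2, with a median of 1.78, against 2.80, 2.75, 2.74 and 2.46 in the WT cords. The WT cords lay close together, whereas 7 KO cords were below all of them and 1 was above. The log2 fold change was -0.43 (SE 0.31, edgeR adjusted p = 0.512), and -0.26 without KO replicates 7 and 9. Hes5 shares 156 exon bases with Gm20421 on the opposite strand, which had 132 counts over all cords, and whether the counting used strand is not given in the sources used here, so its level is uncertain to that extent.

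Fabp7 spread to both sides. It ran from 5.67 normalised CPM in KO replicate 8 to 19.9 in KO replicate 1, with a median of 13.7, against 13.3, 10.4, 10.1 and 12.5 in the WT cords. No KO cord fell inside the WT range: 5 lay above it and 4 below, and the log2 fold change was 0.09 (SE 0.32, edgeR adjusted p = 0.913). Its coefficient of variation was 42.7% among KO cords and 13.4% among WT cords. That of Nes was 76.1% among KO cords and 22.2% among WT cords, and that of Hes5 was 45.9% among KO cords and 5.65% among WT cords.

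Sox2 had the smallest SE of the 8 in the cords. It ran from 41.3 to 54.6 normalised CPM with a median of 49.9 in KO cords, against 46.1, 53.6, 48.3 and 50.3 in the WT cords, a log2 fold change of 0.0038 (SE 0.069, edgeR adjusted p = 0.985). Sox1 ran from 9.55 in KO replicate 7 to 23.3 in KO replicate 8 with a median of 16.5 normalised CPM, against 16.9, 17.2, 17.3 and 23.4 in the WT cords. Of the KO cords, 5 lay below all WT cords and 4 within them, with a log2 fold change of -0.15 (SE 0.18). It was -0.024 without WT replicate 4 and -0.059 without KO replicate 7. Sox3 had a log2 fold change of -0.09 (SE 0.22), from 1.01 to 2.22 normalised CPM in KO cords and 1.48 to 1.89 in WT cords, with overlap.

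Pax6 ran from 12.0 to 17.0 normalised CPM in KO cords and from 12.3 to 14.1 in WT cords, with 5 KO cords above all WT cords, 1 below and 3 between. Its log2 fold change was 0.11 (SE 0.086, edgeR adjusted p = 0.561). Hes1 ran from 4.97 to 8.27 normalised CPM in KO cords and from 5.89 to 8.14 in WT cords, with a log2 fold change of -0.13 (SE 0.14, edgeR adjusted p = 0.688).

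The related lists gave no call in the cords. Of 33 radial glia and neural stem cell genes, 6 were higher and 3 lower in KO cords at an unadjusted p below 0.05, where 7.53% of all tested genes were higher and 6.8% lower, and the median log2 fold change was 0.10. Vim, the filament protein vimentin that assembles with nestin, averaged 364 ± 260 normalised CPM in KO cords (SD, n = 9) and 86.9 ± 8.64 in WT cords (SD, n = 4), with a log2 fold change of 2.07 (SE 0.60, edgeR adjusted p = 0.292). Fgfr2, a fibroblast growth factor receptor of glia, averaged 143 ± 21.8 in KO cords and 188 ± 30.8 in WT cords (log2 -0.40, SE 0.12, edgeR adjusted p = 0.292). Medians were -0.0068 over 17 progenitor domain genes, where Olig2 stood at -0.28 and Nkx2-9 at -0.41, 0.02 over 16 proneural genes, where Btg2 stood at 0.53 and Mfng at 0.65, and 0.01 over 19 Notch genes, where Hey1 stood at -0.26 and Rbpj at 0.19.

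In the families, the genes with the smallest p were Sox8 (log2 -0.25) and Sox11 (0.41) of 14 other Sox genes, Hey1 (-0.26) and Hes3 (0.77) of 6 other Hes and Hey genes, and Pax3 (0.33) and Pax2 (-0.15) of 4 other Pax genes. Fabp4, the fatty acid binding protein of fat cells, stood at 22.3 normalised CPM in KO replicate 7, at 0.0269 to 2.14 in the other 8 KO cords and at 0 to 0.124 in WT cords, and Fabp5 had a log2 fold change of -0.10. The neurofilament genes Nefm (-0.37) and Nefl (-0.36) led the other intermediate filament genes. None of these passed the test.

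Summed markers of several other cells ranged more widely among the KO cords than among the WT cords. Endothelial markers (7 of 7 detected) summed to between 231 and 531 normalised CPM in KO cords and between 267 and 336 in WT cords, and Nes is known as a gene of vessel cells. Proliferation markers (12 of 12) summed to between 45.4 and 150.1 in KO cords and between 44.8 and 53.2 in WT cords. All 11 tested had a positive log2 fold change, as did 53.1% of all tested genes, and their median was 1.06. Astrocyte markers (11 of 11) summed to between 9027 and 15404 in KO cords and between 9313 and 11294 in WT cords, and of these 11 genes 6 had a positive and 5 a negative log2 fold change, with a median of 0.05. Gfap stood at 1.04 (SE 0.43, edgeR adjusted p = 0.315) and S100b at -0.22 (SE 0.11, edgeR adjusted p = 0.381).

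Fibroblast and meningeal markers (6 of 6) summed to between 105 and 2474 normalised CPM in KO cords and between 101 and 126 in WT cords, and microglial markers (6 of 6) to between 223 and 850 in KO cords and between 244 and 299.9 in WT cords. KO replicate 7 was the highest cord in each of these 5 lists. It held 33.9 normalised CPM of the proliferation antigen Mki67, against 0.594 to 4.18 in the other 8 KO cords and 0.472 to 0.932 in WT cords. In the other 8 KO cords the sums reached at most 391 for endothelial, 66.5 for proliferation and 13603 for astrocyte markers. They reached 267 for fibroblast and meningeal and 755 for microglial markers. KO replicate 8, with Nes at 39.4 normalised CPM, had endothelial (295), proliferation (45.4) and astrocyte (10056) sums inside the WT ranges. Its fibroblast and meningeal (267), microglial (349) and Schwann cell (203) sums lay above them. The proliferation marker Mki67 was at 1.74 normalised CPM in KO replicate 8, above the 0.472 to 0.932 of the WT cords, although the proliferation sum was not. Ependymal markers (8 of 8), from cells that line the central canal, summed to between 50.7 and 81.5 in KO cords and between 53.0 and 67.1 in WT cords. Their part in the spread of Nes, Hes5 and Fabp7 was not tested.

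Across the 13 cords, the 28 pairs of the 8 genes were compared on log2 normalised CPM with a pseudocount of 0.5, centred and permuted within each genotype. The strongest pair was Hes5 with Nes, at Pearson's r = -0.84 (permutation p = 0.00267, adjusted over 28 pairs 0.0748) and Spearman's rho = -0.69 (permutation p = 0.0362, adjusted 0.464). No pair passed after adjustment. Without KO replicates 7 and 2, the libraries farthest from the median, r was -0.59, without KO replicate 7 it was -0.71, and among KO cords alone it was -0.85. Hes5 with Hes1, both Notch effectors, had r = -0.31, and the SoxB1 pairs had r = -0.25 for Sox1 with Sox2, 0.27 for Sox1 with Sox3 and 0.52 for Sox2 with Sox3.

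Some pairs with genes outside the 8 were picked after their values were seen and are given as descriptions over the same 13 cords, which share their libraries and scaling. Nes with Vim had r = 0.88 (0.84 without KO replicate 7), with Mki67 0.84 (0.70), with the endothelial gene Pecam1 0.81 (0.64) and with Gfap 0.80 (0.73). Its values were lower with the muscle gene Acta1 (r = 0.67, Spearman's rho = 0.13) and with 2 other glial genes, Aqp4 (r = 0.46) and Slc1a3 (r = 0.30). Among tested genes averaging at least 1 normalised CPM, the closest to Nes were Aldh3b1 (r = 0.98), Lhfpl2 and Trib1 (each r = 0.96). Hes5 with Dll1, a Notch ligand, had r = 0.93 (0.91 without KO replicate 7), whereas Hes1 with Dll1 had r = -0.21. Sox1 had r = -0.77 with Gfap (-0.70 without KO replicate 7).

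**Figure D4:**
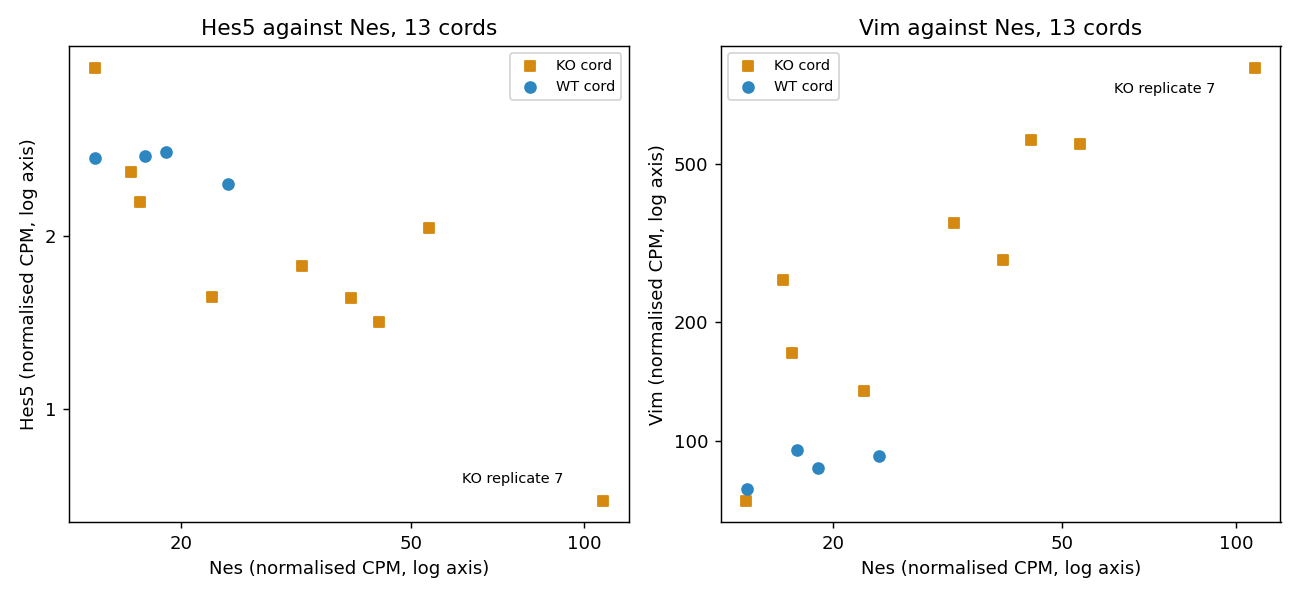
Hes5 (left) and Vim (right) against Nes in 13 cords, in normalised CPM on log axes; squares are KO cords and circles are WT cords. Cords with more Nes, which spans 14.2 to 107.9 normalised CPM, had less Hes5 and more Vim, and KO replicate 7 lies at the end of both clouds.

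Likeness to the mean of the 8 genes was ranked over the other tested genes averaging at least 1 normalised CPM in that material. The genes whose pattern over the 13 cords was most like that mean were Mapk7 (r = 0.85), 5930412G12Rik (0.84), Rnf215 (0.80), Eef2kmt (0.79) and Gm14253 (0.79). Over the 6 cultures they were Phf10, Ftsj3 and Sh3bgrl2 (each r = 0.997), Stil (0.995) and Ercc6l2 (0.994). With 6 libraries and many genes searched, values near 1 are common, and these are descriptions of rank.

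Whether the difference between KO and WT cords was itself different from that between LNA and control cultures was tested in one fit over all 19 libraries. Of the 8 genes, 0 passed with edgeR, where 423 of 24152 tested genes did (1.75%), and DESeq2 called 0 of the 8 too. Sox2 and Pax6, both with a positive difference, had an unadjusted p below 0.05, as did 8.68% of all tested genes in that direction. The log2 fold change of Pax6 was 0.58 higher in the cords than in the cultures (SE 0.21, edgeR adjusted p = 0.197), and that of Sox2 was 0.32 higher (SE 0.13, edgeR adjusted p = 0.240). These p-values rest on a spread shared by both materials. Each SE was smaller than that of the culture fold change in its own fit, 0.25 for Pax6 and 0.21 for Sox2. For Nes, called in the cultures and not in the cords, the difference was 0.67 (SE 0.73, edgeR adjusted p = 0.730) and 0.31 without KO replicate 7, so its effect is not shown to differ between them.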

How the data were processed

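Per the labels' protocols, total RNA was depleted of ribosomal RNA before library preparation. Per the submitters' processing notes, STAR and featureCounts were used with GRCm38, and the strand setting is not given in the sources used here. The authors deposited 1 table per library with raw counts, CPM, FPKM and TPM for 55487 genes, named per the file headers. Symbols came from a gene name table (55141 identifiers matched) and positions from GENCODE M21, counted from 1. The deposited FPKM values were not used.

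Counts were filtered with filterByExpr, scaled by TMM within each material and tested with edgeR 4.0.16 (robust quasi-likelihood test, R 4.3.3) over all genes. A gene was called at a Benjamini-Hochberg adjusted p below 0.05. "Normalised CPM" is this TMM-scaled CPM, while TPM values are the authors'. Fold changes are LNA over control and KO over WT. The code was tested on simulated data. DESeq2 1.42.0, limma 3.58.1, other scalings and filters, a replicate block and fits without each library were alternatives. Cord replicate numbers follow deposition order and only name libraries. Within each group, no library was a copy of another (smallest chi-square per degree of freedom 6.42), and pairs from different groups were not checked. From each list, the text names up to 3 called genes in each direction with the smallest p, or otherwise the 2 with the smallest p. The genes, lists and tests were chosen with earlier results of these data known. One result of the proneural list is not reported here.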

Additional observations from a re-analysis of the deposited data

Results flagged for a closer look

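Of the 8 genes in KO and WT cords, 3 values lay apart from the rest of their group by Dixon's criterion, the gap to the nearest library divided by the range, which chance exceeds in about 1 in 20 groups. It was applied to normalised CPM without a log, for each of the 8 genes in each genotype, so a flag by chance was possible. Nes was highest in KO replicate 7, at 107.9 normalised CPM, against 14.2 to 53.7 in the other 8 KO cords and 14.2 to 24.1 in WT cords. The same library held the muscle, meningeal and proliferation markers described above, and their part in this value was not tested. Sox2 was lowest in KO replicate 8, at 41.3 normalised CPM, against 47.9 to 54.6 in the other 8 KO cords and 46.1 to 53.6 in WT cords. Sox1 was highest in WT replicate 4, at 23.4 normalised CPM, against 16.9 to 17.3 in the other WT cords and 9.55 to 23.3 in KO cords. Schwann cell markers were also high in all of these flagged libraries. They summed to 245 normalised CPM in KO replicate 7, 203 in KO replicate 8 and 116 in WT replicate 4. The sum was 60.3 in KO replicate 2, 16.6 in KO replicate 5 and at most 4.80 in the remaining cords. Their part in the flagged values was not tested.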

How the results depend on the processing

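In the cultures, Nes was called in each alternative except the fit over all 4 groups. In that fit, 632 genes (146 higher, 486 lower) and 0 of the 8 genes were called, and Nes was at 0.39. Leaving out 1 library at a time gave 778 to 1985 called genes, with 778 without control replicate 2 and 1059 without control replicate 1, and 1 of the 8 genes each time. Scaling by library size alone called 741 higher and 831 lower genes, against 458 and 1177 with TMM, and moved the median of all genes to 0.053 (log2). Counts of called genes in the other alternatives ran from 1572 to 2261.

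The culture replicate numbers did not pair the libraries: same-numbered LNA and control libraries had correlations of 0.057, -0.159 and 0.020, and 1 of the 3 LNA libraries correlated best with its own number. With the replicate block, 1793 genes and 1 of the 8 genes were called, Nes at 0.41 (edgeR adjusted p = 4.4e-04), and Hes5 had the opposite sign at -0.19.

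In the cords, 0 of the 8 genes were called in any alternative. Called genes numbered 381 with DESeq2 (310 higher, 71 lower), 3 with limma, 2 with all 4 groups in one fit, 8 without KO replicates 7 and 9, and 0 to 2 without 1 library at a time. Estimates near 0 changed sign without passing a test: Fabp7 to -0.27 with limma, Sox2 to -0.0063 without a filter, and Sox3 to 0.034 without KO replicates 7 and 9. Without 1 library at a time, the log2 fold changes ran from -0.020 to 0.039 for Sox2 and -0.017 to 0.19 for Fabp7 in the cords, and in the cultures from -0.47 to 0.33 for Sox1, -0.94 to 0.49 for Hes5, -0.076 to 0.31 for Hes1 and -0.0085 to 0.30 for Sox3. Without changing sign, Sox1 ran from -0.21 to -0.024, Hes1 from -0.22 to -0.053 and Sox3 from -0.16 to -0.016 in the cords, and Pax6 from -0.64 to -0.25 and Fabp7 from 0.096 to 0.44 in the cultures. The difference between materials ran from 0.31 to 0.83 for Nes, 0.38 to 0.77 for Pax6, -0.40 to -0.037 for Hes1 and -0.38 to -0.063 for Sox3, and, with a change of sign, from -0.43 to 0.33 for Sox1, -0.91 to 0.54 for Hes5 and -0.31 to 0.019 for Fabp7. The cause of these shifts was not tested.

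Sox1 and Hes5 rested on 4 to 28 counts per culture library, which limits both. In the cords 1 library weighed heavily on Nes, whose estimate was 0.70 without KO replicate 7 and 1.05 with it.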

Other observations

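Among markers of cells that neither the cultures nor the progenitor genes stand for, a few single genes were called in the cultures. Slc1a2, the main glutamate transporter of astrocytes, fell to 7.50 ± 0.29 normalised CPM in LNA cultures, against 10.3 ± 0.093 in control cultures (SD, n = 3 each; log2 -0.45, SE 0.12, edgeR adjusted p = 0.0212), the only call among 7 tested astrocyte markers. Pdgfra, the growth factor receptor of oligodendrocyte precursors and mesenchyme, rose to 9.01 ± 0.78 normalised CPM in LNA cultures, against 6.44 ± 0.81 in control cultures (log2 0.48, SE 0.14, edgeR adjusted p = 0.0375). Dcn, the connective tissue proteoglycan decorin, rose to 0.99 ± 0.16 normalised CPM in LNA cultures, against 0.36 ± 0.13 in control cultures (log2 1.44, SE 0.39, edgeR adjusted p = 0.0262).

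In the cords, red blood cell genes had larger estimates than any of the 8 progenitor genes. Their 4 markers summed to between 27.5 and 461.2 normalised CPM in KO cords and between 15.0 and 29.7 in WT cords. The lowest KO value was that of replicate 9, whose Pttg1 goes against its label, and the other 8 KO cords ran from 69.8 to 461.2. Alas2, the heme synthesis enzyme of red cell precursors, averaged 8.54 ± 5.93 normalised CPM in KO cords (SD, n = 9) and 0.97 ± 0.28 in WT cords (SD, n = 4), with a log2 fold change of 3.13 (SE 0.53) that did not pass after adjustment (edgeR adjusted p = 0.292).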
